A study of Mus musculus with 2688 samples.

Results

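Microglia of the embryonic midbrain were compared with microglia of the embryonic forebrain. Both groups were wild-type CD1 mice of embryonic age, with no treatment named in the labels, and the gestational day was not given in the sources used here. Single cells had been sorted into 1 plate of 384 wells by their surface proteins, with antibodies to CD11b, CD45, Ly6C, Ly6G and CD206, and SmartSeq2 libraries with spike-in RNA had been read from each well. The wells were chosen by their replicate label, 4 forebrain and 4 midbrain replicates. Of 380 sorted wells, 349 had at least 500 detected genes and at most 20% mitochondrial counts, 182 of forebrain (47, 44, 45 and 46 in replicates 1 to 4) and 167 of midbrain (44, 45, 42 and 36). They were 349 of 2402 such cells in the series, which also holds embryonic cerebellum and spinal cord and regions of 2 later ages. The counts of the cells of 1 replicate were summed, and these 8 sums, with 11682617 to 22735442 counts each, are called samples here.

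Microglia are the macrophages that live in brain and spinal cord tissue. They enter the neural tube early in development as yolk sac-derived cells, multiply there, and take on the gene expression of mature microglia step by step. Purine receptors such as P2RY12 let them sense nucleotides from other cells, the CSF1 receptor keeps them alive, and a transient embryonic population makes SPP1 and GPNMB. Region differences are well known from adult brain, and the comparison asks whether they exist before birth.

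Features of the plate and of the samples bear on every value that follows. Forebrain replicates 1 to 4 lay in plate columns 1 to 3, 4 to 6, 7 to 9 and 10 to 12, and midbrain replicates 1 to 4 in columns 13 to 15, 16 to 18, 19 to 21 and 22 to 24, so region and plate columns cannot be told apart. In the forebrain columns the cells of rows A, C, E and every other row to O were shallow, with sample medians of 29796.5 to 88880 counts per cell against 484350 to 592566 in rows B, D, F and on to P. In the midbrain columns the medians of the 2 sets of rows were 230487 to 694605 and 388752 to 574018. Rows B to P therefore gave 91.7%, 92.1%, 92.8% and 80.7% of the counts of the forebrain samples and 66.7%, 50.3%, 49.1% and 37.8% of those of the midbrain samples. Xist is made from the inactive X chromosome of females. Every sample held cells with at least 5 reads of Xist and fewer than 5 of Y-linked genes, 6 to 24 a sample. Each also held cells with the opposite pattern, 5 to 23 a sample, and 1 cell of forebrain replicate 3 had at least 5 reads of both. Each sample thus held cells of at least 2 embryos, and n counts these pools.

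**Figure D1:**
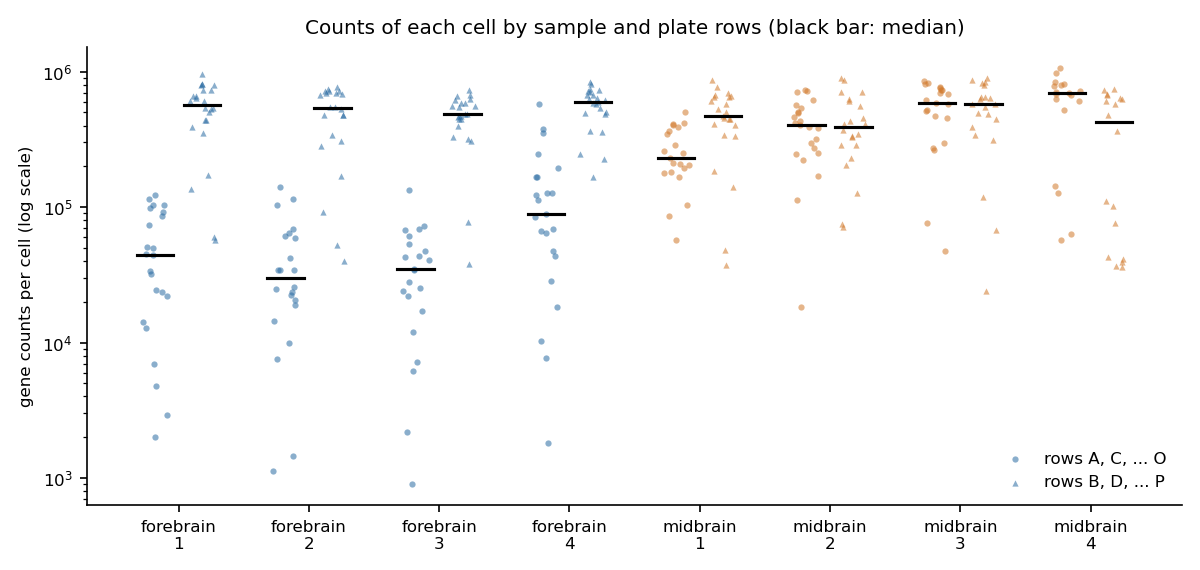
Gene counts of each of the 349 cells (y axis, log scale) in the 8 samples (x axis), circles for plate rows A to O and triangles for rows B to P; black bars are medians. In the forebrain samples the circles lie lower, with medians of 29796.5 to 88880 counts, and in the midbrain samples both sets of rows lie between 230487 and 694605.

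By the main test no gene differed between the regions at an adjusted p under 0.05. edgeR's quasi-likelihood test called 0 of 12384 genes tested (0%, with 0 higher and 0 lower in midbrain), and the smallest adjusted p was 0.199. At an unadjusted p under 0.05 there were 675 genes (5.45%), 293 higher (2.37%) and 382 lower (3.08%) in midbrain. All 4 midbrain samples lay above all 4 forebrain samples for 233 genes (1.88%) and below them for 229 (1.85%), 462 in all (3.73%). DESeq2 called 154 genes (93 higher and 61 lower), 85 of them among the genes edgeR tested. Without a filter on low counts edgeR called 24 (15 higher and 9 lower), and with every cell thinned to 27381 reads it called 2, Cdc6 higher and Gm26917 lower. Embryonic spinal cord against cerebellum, on another plate, likewise gave 0 of 12375 genes by edgeR (0%), and 795 at an unadjusted p under 0.05 (6.42%).

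The precision of the comparison depends on the level of the gene. Of 94 genes above 1000 CPM (counts scaled to a common library size by TMM), 90 (95.7%) had a 95% interval that lay wholly within 2-fold in either direction. The same held for 1328 of 1720 genes of 100 to 1000 CPM (77.2%), 846 of 6716 of 10 to 100 CPM (12.6%) and 0 of 3854 under 10 CPM. For abundant microglial genes the data thus bound the difference, while for most genes under 100 CPM a 2-fold difference would lie inside the interval.

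Most genes of DNA replication had a higher fitted level in midbrain, and none passed the test. The list of 25 S phase genes holds the helicase that unwinds DNA, the factors that load it and enzymes that make nucleotides. All 25 were tested, 24 had a fitted difference above 0, 8 lay apart in all 4 midbrain samples, among them Mcm3, Mcm4, Mcm7, Tyms, Cdc6, Fen1 and Hells (1.88% of all genes tested lay so), and 0 passed the test. Their median log2 difference was 0.84, against -0.01 over all genes tested. The summed level of the list ran from 762 to 2037 CPM in forebrain samples and from 1852 to 3228 CPM in midbrain samples, so the sums overlapped.

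Cdc6 loads the replicative helicase onto origins and was the S phase gene with the smallest p. Cdc6 stood at 0, 0.269, 0.348 and 0.121 CPM in forebrain replicates 1 to 4 and at 11.8, 17.2, 15.6 and 36.7 CPM in midbrain replicates 1 to 4. The 182 forebrain cells held 9 reads of Cdc6 in 4 cells, and the 167 midbrain cells held 1523 reads in 16 cells. All midbrain samples were far above all forebrain samples, but 2 to 5 cells carried the gene in each of them. The log2 difference was 6.76 ± 1.11 (SE), a size that depends on the fit because forebrain is close to 0, with adjusted p = 0.361. Its adjusted p was 7.79e-14 by DESeq2, 0.00320 without the low-count filter and 0.0497 in thinned cells, in which 0.671% of forebrain and 7.27% of midbrain cells had a read. Over the alternatives that kept the gene its adjusted p ran from 7.79e-14 to 0.999 and its sign was the same; with counts as deposited the log2 difference was 2.46, and in rows B to P 11.2. Embryonic cerebellum had 14.2 ± 9.05 CPM and spinal cord 27.7 ± 20.2 CPM (SD, n = 4) in a fit of the 4 embryonic regions, with 1 spinal cord sample at 0, so the spinal cord range included the forebrain values.

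The MCM proteins form the helicase itself. Mcm4 stood at 37.3, 70.6, 115 and 42.9 CPM in forebrain replicates 1 to 4 and at 239.9, 192, 124 and 285 CPM in midbrain replicates 1 to 4. The groups did not overlap, midbrain replicate 3 being the nearest to forebrain (log2 difference 1.66 ± 0.39 (SE), 95% interval 0.80 to 2.52, adjusted p = 0.694). Mcm3 stood at 27.2, 72.9, 165 and 117 CPM in forebrain replicates 1 to 4 and at 266, 263, 212.4 and 304 CPM in midbrain replicates 1 to 4, again without overlap (log2 difference 1.45 ± 0.43 (SE), 95% interval 0.50 to 2.41, adjusted p = 0.847). Mcm5 had 108, 119, 166 and 228 CPM in forebrain and 428, 236, 211.9 and 351 CPM in midbrain, where midbrain replicate 3 lay under forebrain replicate 4 (log2 difference 0.98 ± 0.30 (SE), 95% interval 0.33 to 1.63, adjusted p = 0.847). Mcm7 had 45.8, 84.5, 64.1 and 91.4 CPM in forebrain and 139, 92.3, 119 and 181 CPM in midbrain, with midbrain replicate 2 and forebrain replicate 4 almost level (log2 difference 0.89 ± 0.30 (SE), 95% interval 0.24 to 1.55, adjusted p = 0.899). Mcm2 and Mcm6 had log2 differences of 1.57 ± 0.61 and 0.73 ± 0.43 with overlapping groups. Without the low-count filter Mcm4 passed, with adjusted p = 0.000983.

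Other genes of DNA synthesis were mostly on the same side. Tyms, thymidylate synthase, averaged 43.9 ± 13.4 CPM in forebrain and 80.2 ± 31.7 in midbrain (SD, n = 4), and its groups were apart with forebrain replicate 1 and midbrain replicate 3 almost level. Pcna, the sliding clamp of the polymerases, had a log2 difference of 0.64 ± 0.33 with overlap. Dnmt1, the methyltransferase that copies DNA methylation at replication, is in none of the lists and was among the 12 genes with the smallest p. Dnmt1 stood at 44.01, 53.6, 48.8 and 91.1 CPM in forebrain replicates 1 to 4 and at 112, 172, 156 and 151 CPM in midbrain replicates 1 to 4. All midbrain samples were above all forebrain samples. In cells not scored as cycling by G2/M genes, which can include cells in S phase, its log2 difference was 2.15. The fitted ratio was 2.48-fold (log2 difference 1.31 ± 0.29 (SE), 95% interval 0.68 to 1.95, adjusted p = 0.663). Rrm2, a subunit of ribonucleotide reductase, was the S phase gene with a fitted difference below 0, at -0.05 ± 0.49.

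The promoters of these genes are shown because the S phase genes lay on 1 side together and E2F factors are known to drive their transcription at entry into S phase. The 250 bases before the RefSeq start site were taken on GRCm38.p6, and 21 of 25 S phase genes had an entry. Searched on both strands for TTTCCCGC, TTTGGCGC or TTTCGCGC, forms of the E2F motif that can overlap one another, 8 of the 21 (38.1%) held a match. The share was 1.78% over the promoters of 27025 genes, 6.25% (1 of 16) for G2/M genes and 7.14% (1 of 14) for homeostatic genes. A match describes the letters only. In the deposited table Cdc6 starts further upstream than in RefSeq, so its window lies inside the gene as counted there. The capitals below mark the matches, for Cdc6 at chr11:98907901-98908150 and for Mcm5 at chr8:75109259-75109508, both on the plus strand, 5′ to 3′. The Cdc6 match begins 138 bases before the start and reads on the minus strand; Mcm5 has 2 overlapping matches, beginning 153 and 149 bases before it.
Cdc6: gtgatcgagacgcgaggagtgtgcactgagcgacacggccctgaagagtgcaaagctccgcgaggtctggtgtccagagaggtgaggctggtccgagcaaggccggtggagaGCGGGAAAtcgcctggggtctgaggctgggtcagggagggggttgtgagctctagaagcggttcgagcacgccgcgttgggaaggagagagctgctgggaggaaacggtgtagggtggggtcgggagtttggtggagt
Mcm5: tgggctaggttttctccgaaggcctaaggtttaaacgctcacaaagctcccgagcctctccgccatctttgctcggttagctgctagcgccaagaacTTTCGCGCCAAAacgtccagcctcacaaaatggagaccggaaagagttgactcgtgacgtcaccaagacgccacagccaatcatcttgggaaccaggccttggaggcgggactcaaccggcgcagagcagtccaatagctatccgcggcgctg

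**Figure D2:**
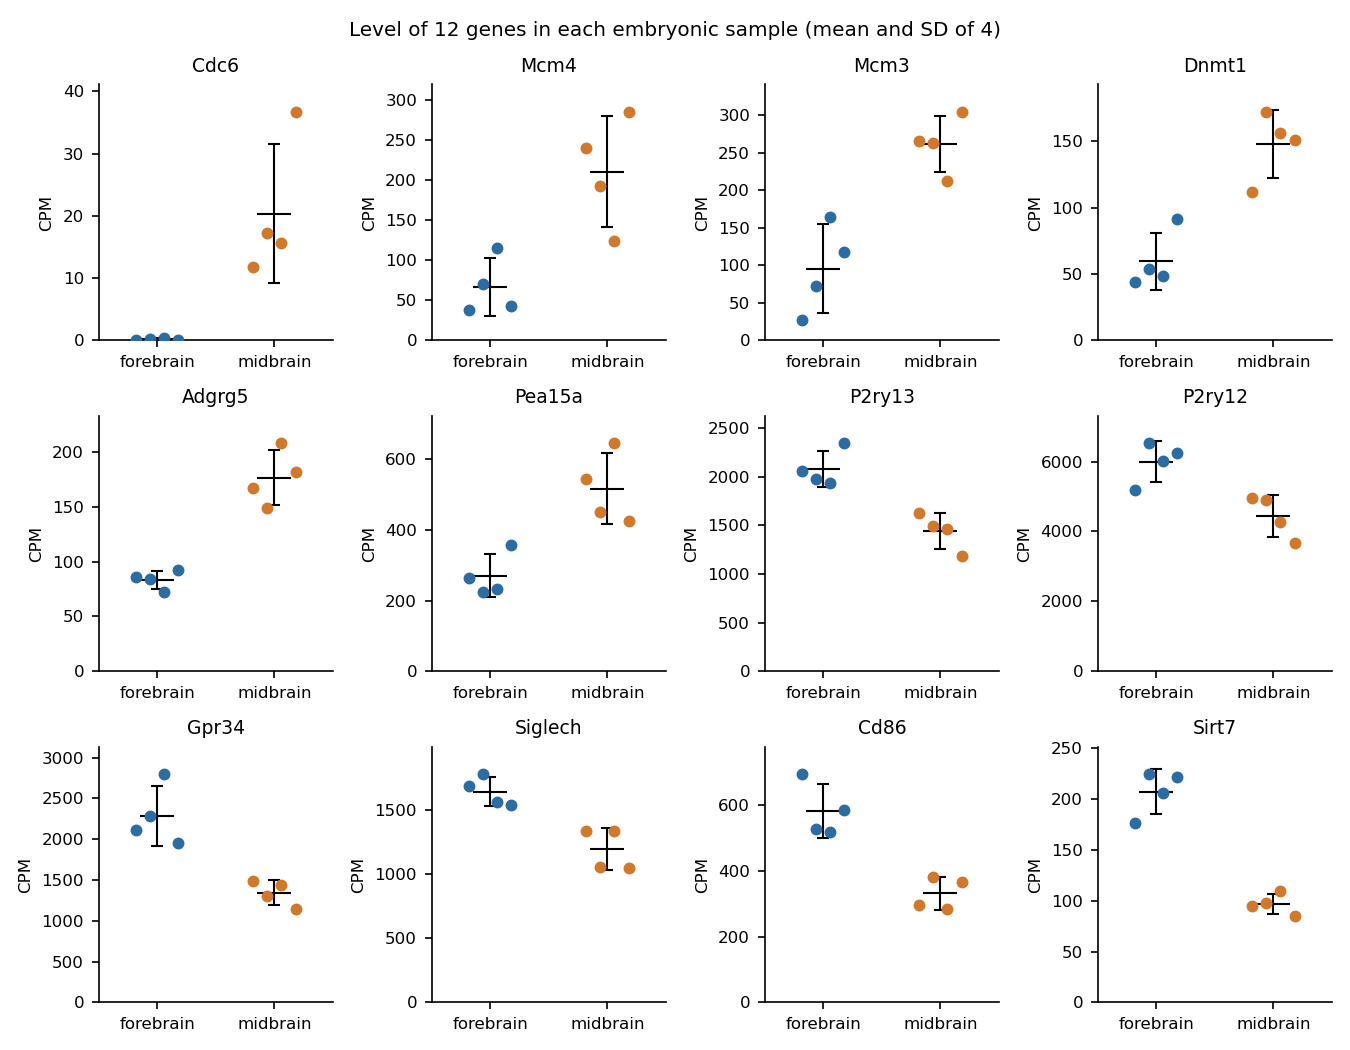
CPM (y axes) of 12 genes in each forebrain (blue) and midbrain (orange) sample; points are samples, bars the mean and SD of 4. All 12 pairs of groups are apart: Cdc6, Mcm4, Mcm3, Dnmt1, Adgrg5 and Pea15a lie higher in midbrain, the other 6 lower, and Cdc6 is at most 0.348 CPM in forebrain.

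Genes of mitosis had a smaller median difference. Of 20 G2/M genes 16 had a difference above 0, the median log2 difference was 0.50, 0 passed and 0 lay apart. Mki67, the proliferation antigen, had 65.1, 37.9, 65.6 and 90.9 CPM in forebrain and 113, 65.4, 153 and 142 CPM in midbrain, and midbrain replicate 2 lay within the forebrain range (log2 difference 0.86 ± 0.34 (SE), 95% interval 0.11 to 1.62, adjusted p = 0.911). Cdc20, an activator of the anaphase-promoting complex, had 18.5, 12.3, 51.4 and 31.1 and 59.1, 41.95, 124 and 66.6 CPM and overlapped too. Top2a, a topoisomerase of dividing cells, averaged 99.6 ± 66.7 CPM in forebrain and 134 ± 54.7 in midbrain (SD, n = 4). In rows B to P alone the median of the G2/M list was 0.18, and that of the S phase list 0.96. Among cells not scored as cycling the S phase median was 0.98, with 23 of 24 genes above 0.

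The share of cycling cells was counted directly. Cells were scored after thinning to 27381 reads, and those with reads of 5 or more of the 20 G2/M genes are called cycling. Thinning left out 9, 11, 9 and 4 shallower cells of the forebrain replicates and 0, 1, 1 and 0 of the midbrain replicates. Forebrain replicates 1 to 4 had 13.2%, 15.2%, 8.33% and 16.7% cycling cells (5 of 38, 5 of 33, 3 of 36 and 7 of 42). Midbrain replicates had 22.7%, 11.4%, 19.5% and 27.8% (10 of 44, 5 of 44, 8 of 41 and 10 of 36). Midbrain replicate 2 lay within the forebrain range, and the other midbrain samples above it. The means were 13.3% ± 3.63 and 20.3% ± 6.89 (SD, n = 4), a difference of 7.02 percentage points with exact two-sided permutation p = 0.143. Pooled over samples, 20 of 149 forebrain cells (13.4%, exact 95% interval 8.40 to 20.0) and 33 of 165 midbrain cells (20.0%, 14.2 to 26.9) were cycling; the intervals cover counting error only. In cells not thinned the samples did not overlap, with 12.8% to 15.9% in forebrain and 17.8% to 30.6% in midbrain (exact permutation p = 0.0286, which is the lowest value possible with 70 splits), while the depth of the cells differed as above. In rows B to P alone, where depths were alike, the means of thinned cells were 16.3% and 22.2% (exact permutation p = 0.286). Midbrain replicate 2 was the midbrain sample within the forebrain range, so leaving it out left groups without overlap. The difference was then 10.0 points (exact permutation p = 0.0286, the lowest value possible with 35 splits). Leaving out any other sample gave exact permutation p-values of 0.143 to 0.286.

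**Figure D3:**
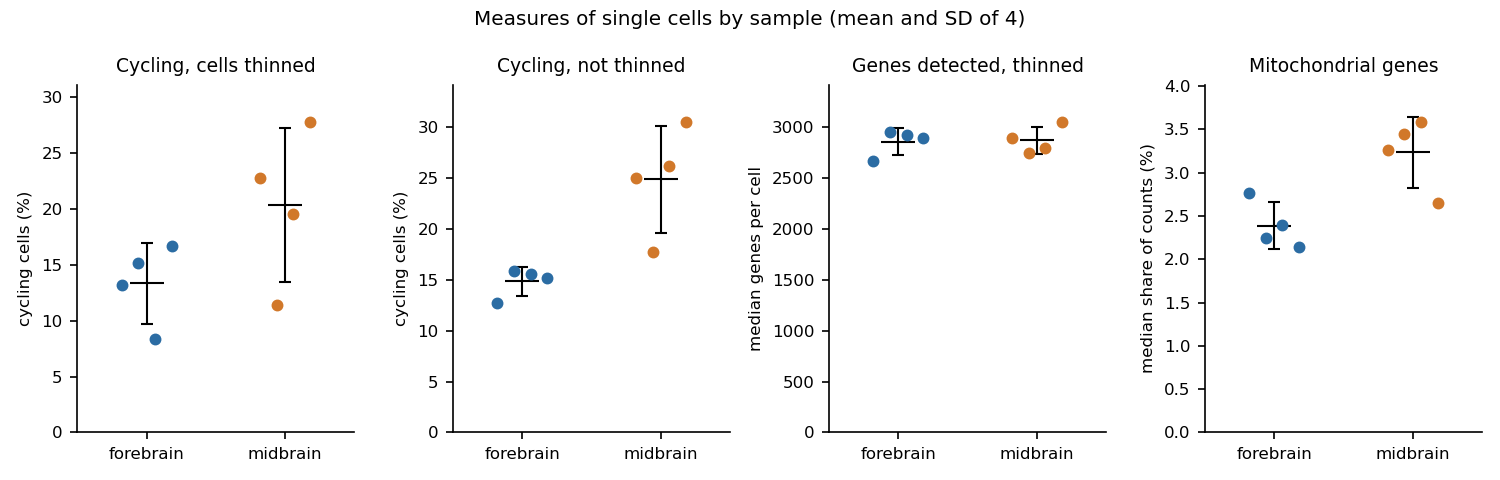
Percent of cycling cells in thinned and in unthinned cells, median genes per thinned cell, and median mitochondrial share (y axes) in each forebrain (blue) and midbrain (orange) sample; bars are the mean and SD of 4. The thinned cycling shares overlap, 8.33% to 16.7% and 11.4% to 27.8%, and the unthinned ones do not.

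Most genes of mature microglia had a slightly lower fitted level in midbrain, and none passed the test. Of 20 homeostatic microglia genes, all tested, 19 had a fitted difference below 0, with a median log2 difference of -0.23, and 0 passed. The members span receptors, surface markers and secreted proteins. Of them 5 lay apart below forebrain, among them P2ry12, P2ry13, Gpr34 and Siglech, against 1.85% of all genes tested. The summed level of the list was 60290 to 67580 CPM in the forebrain samples and 53960 to 58460 CPM in the midbrain samples, without overlap. For 19 of 20 members the 95% interval lay within 2-fold, so a larger difference was outside the interval. P2ry12 had a read in 100% of forebrain and 98.2% of midbrain cells at 27381 reads.

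Gpr34 and P2ry13 had the lowest fitted differences of the homeostatic list. Gpr34 stood at 2112, 2288, 2800.1 and 1952 CPM in forebrain replicates 1 to 4 and at 1489, 1307, 1438 and 1150.0 CPM in midbrain replicates 1 to 4. It encodes a receptor for lysophosphatidylserine. Every midbrain sample was below every forebrain sample (log2 difference -0.77 ± 0.14 (SE), 95% interval -1.06 to -0.47, adjusted p = 0.396), and without the low-count filter the gene passed, with adjusted p = 0.0283. In thinned cells its log2 difference was -0.41, and that of P2ry13 was -0.32. P2ry13, an ADP receptor next to P2ry12 on chromosome 3, had 2054, 1979, 1929.7 and 2346 CPM in forebrain and 1628, 1489.6, 1466 and 1189 CPM in midbrain. The groups were apart, and midbrain replicate 4 was lowest (log2 difference -0.53 ± 0.12 (SE), 95% interval -0.79 to -0.26, adjusted p = 0.694). P2ry12 stood at 5195, 6532, 6016 and 6251 CPM in forebrain replicates 1 to 4 and at 4946, 4892, 4268 and 3683 CPM in midbrain replicates 1 to 4. It encodes the ADP receptor that steers microglial processes. Midbrain replicates 1 and 2 lay closest to forebrain replicate 1, without crossing it (log2 difference -0.43 ± 0.11 (SE), 95% interval -0.68 to -0.18, adjusted p = 0.759). Entpd1, the ectoenzyme CD39 that degrades ATP and ADP, averaged 616 ± 20.7 CPM in forebrain and 495 ± 37.3 in midbrain (SD, n = 4), also apart. Of 9 tested genes of purine receptors and ectoenzymes, Gpr34 included, 7 were lower and 4 of these apart (1.85% over all genes tested), and 0 passed. Of these 4, P2ry12, P2ry13 and Gpr34 are also members of the homeostatic list.

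Siglech, a sialic acid-binding lectin, averaged 1644 ± 113 CPM in forebrain and 1195 ± 164 in midbrain (SD, n = 4), without overlap (log2 difference -0.46 ± 0.12 (SE), 95% interval -0.73 to -0.19, adjusted p = 0.759). Cx3cr1, the fractalkine receptor, averaged 4827 ± 139 CPM in forebrain and 4429 ± 282 in midbrain and overlapped (log2 difference -0.12 ± 0.08 (SE), 95% interval -0.30 to 0.05, adjusted p = 0.939). Tmem119 had a log2 difference of -0.36 (95% interval -0.77 to 0.04) and the transcription factor gene Sall1 -0.28 (-0.73 to 0.16), both with overlap. Csf1r, the receptor for CSF1 and IL-34, had 11054, 12833, 12010.3 and 10546 CPM in forebrain and 10706, 9665, 10197 and 10454 CPM in midbrain. Midbrain replicate 1 exceeded forebrain replicate 4, and the difference was bounded closely, at -0.18 (95% interval -0.36 to -0.0023). C1qa, a complement subunit, was the homeostatic gene on the other side, at 0.04 (-0.15 to 0.23).

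**Figure D4:**
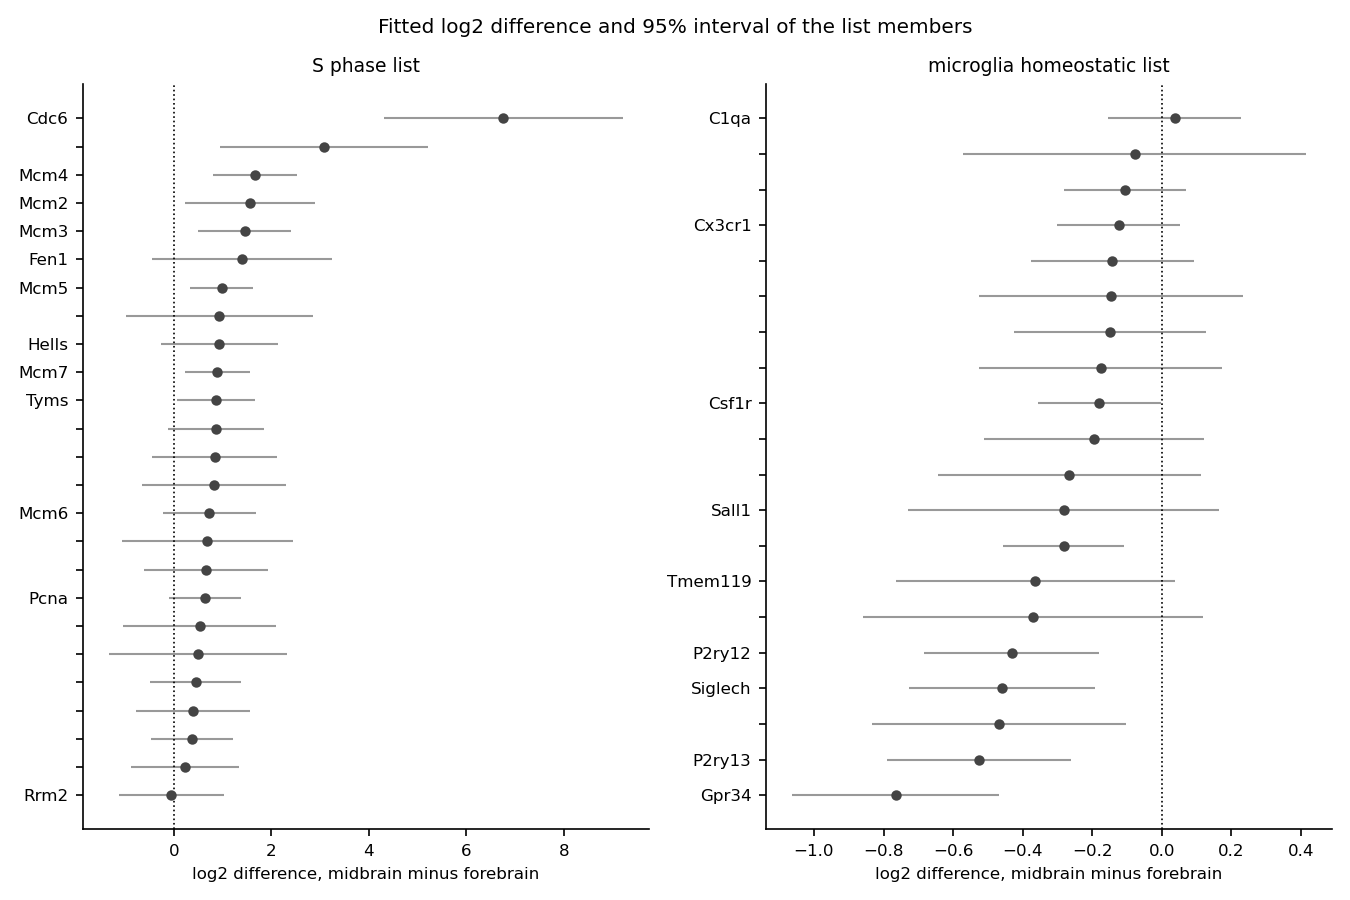
Fitted log2 difference (x axes, midbrain minus forebrain) with 95% intervals for the 25 S phase and 20 homeostatic genes (y axes, in order of the difference, with names for genes given in the text). In the left panel 24 of 25 points lie right of 0, with a median of 0.84; in the right panel 19 of 20 lie left of 0, with a median of -0.23, on an x axis of another scale.

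The direction of both lists held under the alternatives tried. Over 21 alternatives the median of the homeostatic list ran from -0.33 to -0.17 and that of the S phase list from 0.49 to 1.04; the G2/M median ran from 0.16 to 0.88. In rows B to P alone the homeostatic median was -0.19 with 19 of 20 genes lower, and the S phase median 0.96 with 24 of 25 higher. With thinned cells they were -0.33 (19 of 20 lower) and 0.91 (24 of 24 higher). P2ry12 had a log2 difference of -0.36 and P2ry13 of -0.38 in rows B to P, and Gpr34 of -0.65. Tmem119 and Sall1 had smaller differences there than over all rows, -0.11 against -0.36 and -0.073 against -0.28. Mcm4 had 1.76 and Dnmt1 1.51 there. Over the 21 alternatives the log2 difference of Tmem119 ran from -0.60, in thinned cells, to -0.11. That of Sall1 ran from -0.44 to -0.073.

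Other genes among the 12 with the smallest p on the lower side were of different kinds, and none passed the test. Cd86, the costimulatory ligand, had 696, 529, 517 and 587 CPM in forebrain and 296, 382, 283 and 366 CPM in midbrain, all apart (log2 difference -0.81 ± 0.16 (SE), 95% interval -1.16 to -0.46, adjusted p = 0.466). Sirt7, a nuclear deacylase of the sirtuin family, had 176, 225, 206 and 222 and 94.3, 97.7, 110.0 and 85.2 CPM. The highest midbrain sample of Sirt7 was thus below the lowest forebrain sample (log2 difference -1.10 ± 0.19 (SE), 95% interval -1.51 to -0.69, adjusted p = 0.361), and DESeq2 gave it adjusted p = 0.000207. Rsrp1, an arginine and serine-rich protein gene, averaged 1856 ± 211 CPM in forebrain and 1147 ± 49.7 in midbrain (SD, n = 4; log2 difference -0.69 ± 0.11 (SE), 95% interval -0.94 to -0.45, adjusted p = 0.361). Malat1, a noncoding RNA kept in the nucleus, averaged 1740.2 ± 177 CPM in forebrain and 1121 ± 128 in midbrain (log2 difference -0.63 ± 0.12 (SE), 95% interval -0.90 to -0.37, adjusted p = 0.453); in thinned cells its difference was -0.35. Slc17a5, the lysosomal sialic acid exporter, had 86.3, 118, 131 and 109.6 and 41.1, 42.2, 40.1 and 58.8 CPM, with midbrain replicate 4 above the other 3 and still below forebrain. The zinc finger genes Zfp868 and Zfp397 averaged 113 and 76.8 CPM in forebrain and 43.2 and 20.9 CPM in midbrain, also apart. 4932438A13Rik averaged 146 ± 36.7 CPM in forebrain and 64.2 ± 13.5 in midbrain.

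On the higher side, Adgrg5, an adhesion G protein-coupled receptor, had 85.97, 83.8, 72.4 and 92.2 CPM in forebrain and 167, 149, 208 and 182 CPM in midbrain, apart and with little spread within forebrain (log2 difference 1.08 ± 0.20 (SE), 95% interval 0.63 to 1.52, adjusted p = 0.453). DESeq2 called it, with adjusted p = 0.00196; in rows B to P its log2 difference was 0.66. Cul1, the scaffold of SCF ubiquitin ligases, averaged 86.6 ± 28.8 CPM in forebrain and 214.5 ± 44.1 in midbrain (SD, n = 4), and Pea15a, a phosphoprotein of astrocytes and other cells, 269.9 ± 60.9 CPM in forebrain and 516 ± 100.04 in midbrain; both were apart, and in thinned cells the log2 difference of Pea15a was 0.61 against 0.93. Rn18s-rs5, a gene row that holds 18S ribosomal RNA sequence, had 12102, 11025, 10938 and 11058 CPM in forebrain and 15259, 18166, 19344 and 16664 CPM in midbrain (log2 difference 0.62 ± 0.08 (SE), 95% interval 0.44 to 0.81, adjusted p = 0.199). Ribosomal RNA has many copies, so its counts are uncertain where reads match several. Gm10800, Gm10717 and Gm21738, predicted genes, averaged 3257, 182 and 150.2 CPM in midbrain and 1116, 71.96 and 51.8 CPM in forebrain. Of the 24 genes with the smallest p, 12 in each direction, 16 were called by DESeq2. It called 154 of the 15135 genes to which it gave an adjusted p. The 24 were picked by their edgeR p on the same sums that DESeq2 tested. Their DESeq2 calls and their lying apart are thus no further support.

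A few of the 24 rested on very few cells. Mapt, the axonal protein tau, had 23 reads in 8 forebrain cells and 1295 reads in 28 midbrain cells, with 785 reads in 1 cell of midbrain replicate 1. Palm, paralemmin, had 46 reads in 6 forebrain cells and 1553 in 15 midbrain cells. Tspan32os had 68 reads in 5 forebrain cells and 0 reads in midbrain, and Gm11251 284 reads in 6 forebrain cells and 2 reads in midbrain. The summed level of 16 neuron markers was 18.2 to 99.4 CPM in forebrain samples and 85.6 to 337 CPM in midbrain samples, with 6 of the 16 tested, 4 higher and 2 lower, and 0 of the 16 at 0 in all samples. That of 15 neural progenitor and astrocyte markers was 44.6 to 113 and 108 to 187 CPM, with 5 of 6 tested genes higher and Sox2 at 0 in all samples. Stmn2, a growth-associated neuronal protein, had 0.219, 11.3, 3.22 and 1.7 CPM in forebrain and 181, 30.8, 7.4 and 21.7 CPM in midbrain. The part of neuronal RNA in these values was not tested.

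Markers of other cell types were summed in each sample. Border macrophage markers summed to 461 to 1208 CPM in forebrain and 551 to 708 CPM in midbrain samples; 9 of 18 were tested, 3 higher and 6 lower, and 0 passed. Mrc1, which encodes the CD206 protein used in the sort, had 36.2, 236, 36.8 and 233 CPM in forebrain and 106, 109, 223 and 137 CPM in midbrain. It varied more between samples of a region than between regions. Pf4 had 1 read in forebrain and 260 reads in midbrain, all of them in replicate 4. Ms4a7 had 95 and 200, with 193 of the 200 in midbrain replicate 4, and Lyve1 15 and 142, with 141 of the 142 in midbrain replicate 3. Monocyte markers summed to 6.23 to 21.8 CPM and 24.6 to 119 CPM, and erythroid markers to 24.2 to 96.0 CPM and 1.04 to 44.2 CPM in forebrain and midbrain samples. Oligodendrocyte lineage markers summed to 102.5 to 158 and 88.7 to 209 CPM, endothelial and mural markers to 50.5 to 108 and 43.3 to 146 CPM with Cldn5 at 0 throughout, and megakaryocyte and progenitor markers to 157 to 211 and 141 to 365 CPM. The summed levels of neutrophil and mast cell markers reached 2.20 CPM and those of T and NK cell markers 3.65 CPM. The summed level of B cell markers was 1164 to 1420 CPM in forebrain and 1269 to 1762 CPM in midbrain. Ighm, an immunoglobulin gene, made up most of them, with 59094 reads in 170 of 182 forebrain cells and 98379 reads in 157 of 167 midbrain cells, while Cd79a had 15 and 0 reads. Ighm was at 1126 ± 125 CPM in forebrain and 1289 ± 222 in midbrain (SD, n = 4), with overlapping groups.

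Genes that pattern the brain regions were near 0 in these samples. Of 21 midbrain patterning genes 0 passed the filter on low counts, as did 0 of 19 Hox genes, and of 17 forebrain patterning genes 1 did. En1 had 7 reads, all in midbrain replicate 4, and En2 had 0 reads. These genes belong to neural cells and were close to 0 in the sorted cells, so the dissection was not tested by them.

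Spp1 and Gpnmb, made by a phagocytic population of embryonic microglia, were highest in single samples and cells of both regions. Spp1 stood at 951, 305, 5601 and 361 CPM in forebrain replicates 1 to 4 and at 798, 1033, 632 and 10647 CPM in midbrain replicates 1 to 4. Forebrain replicate 3 and midbrain replicate 4 stood far above the other 3 samples of their regions, and 1 cell gave 96.3% and 63.7% of their Spp1 reads. Gpnmb stood at 15.3, 65.3, 4.79 and 1.76 CPM in forebrain replicates 1 to 4 and at 2.47, 25.1, 55.1 and 505 CPM in midbrain replicates 1 to 4, and 1 cell held 99.8% of the reads of midbrain replicate 4. The fitted log2 differences were 0.86 (95% interval -1.68 to 3.40) and 2.76 (-0.35 to 5.87); without midbrain replicate 4 they were -1.14 and 0.34. Without forebrain replicate 3 that of Spp1 was 2.60. That of Gpnmb was 0.21 in rows B to P, 1.34 with a replicate block, 1.75 in thinned cells, 4.85 in cells not cycling and 4.34 without forebrain replicate 2. Cells with at least 2 reads of both genes at 27381 reads were 2.63%, 3.03%, 2.78% and 0% of forebrain and 0%, 2.27%, 4.88% and 5.56% of midbrain cells. The 0 of 42 cells of forebrain replicate 4 allow a share of up to 7.14%, and the 0 of 44 of midbrain replicate 1 up to 6.82%. In all, 3 of 149 forebrain and 5 of 165 midbrain cells were positive, with means of 2.11% ± 1.42 and 3.18% ± 2.55 (SD, n = 4; exact two-sided permutation p = 0.6). Apoe, the lipid carrier, had 14334, 12687, 9152 and 8859 and 12884, 13751, 12412 and 18251 CPM with overlap, and Lpl, lipoprotein lipase, 161, 232, 458 and 132 and 195, 445, 194 and 757 CPM. Igf1, a growth factor, averaged 110.4 ± 52.04 CPM in forebrain and 81.4 ± 32.5 in midbrain, and Srgn, the granule proteoglycan, 20.9 ± 15.3 CPM in forebrain and 16.6 ± 8.89 in midbrain (SD, n = 4), both with overlap. Clec7a, a receptor for beta-glucans, had 558 reads in forebrain, 557 of them in replicate 1, and 0 in midbrain.

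The other lists showed small or mixed differences, and 0 of their members passed. Actin cytoskeleton genes were higher for 17 of 20, with a median log2 difference of 0.21. Cfl1, the actin-severing protein cofilin, averaged 707 ± 31.8 CPM in forebrain and 887 ± 111 in midbrain (SD, n = 4) and lay apart, and Rac2, a GTPase of blood cells, averaged 759.6 ± 121 CPM in forebrain and 1038 ± 146 in midbrain. Nuclear oxidative phosphorylation genes were higher for 52 of 78 (median 0.12). Of these 78 genes 4 lay apart above and 2 apart below, against 1.88% and 1.85% of all genes tested. Atp5b, a subunit of ATP synthase, was among those above, at 1063 ± 117 CPM in forebrain and 1331 ± 135 in midbrain. Cytosolic ribosomal protein genes were split, 36 higher and 43 lower, with a median of -0.02. Glycolysis genes were higher for 13 of 17 (median 0.21). Lysosome genes were lower for 23 of 30 (median -0.14), and for 27 of the 30 the interval lay within 2-fold. CSF1 and PI3K signalling genes were lower for 12 of 13 (median -0.20), a list that shares Csf1r with the homeostatic one; Pik3cg, a leukocyte PI3-kinase subunit, had a log2 difference of -0.59 ± 0.24 and lay apart.

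Type I interferon genes had a median of -1.32, with 12 of 20 tested, 3 higher and 9 lower, and Mx1 apart below. Their levels were low, with summed CPM of 93.9 to 341 in forebrain and 76.6 to 185 in midbrain. Over the alternatives that median ran from -2.12 to -0.06. Among chemokines Ccl6 averaged 242 ± 15.3 CPM in forebrain and 170.2 ± 34.8 in midbrain (SD, n = 4) and lay apart below, and Ccl9 averaged 348 ± 70.5 CPM in forebrain and 211 ± 65.1 in midbrain with overlap; of 16 tested genes 11 were higher and 5 lower (median 0.39, and -0.25 in thinned cells). Il4ra, the IL-4 receptor chain, had 215.1, 318, 223 and 306 CPM in forebrain and 367, 498, 534 and 378 CPM in midbrain, apart above (log2 difference 0.74 ± 0.20 (SE), 95% interval 0.31 to 1.17, adjusted p = 0.759). Among transcription factors of macrophages, Spi1, the gene of PU.1, had a log2 difference of 0.41 (0.05 to 0.76) and Mef2c of -0.40 (-0.78 to -0.03), both with overlap. Dhcr7, an enzyme that ends cholesterol synthesis, averaged 106 ± 35.8 CPM in forebrain and 45.8 ± 22.4 in midbrain and lay apart below, while cholesterol synthesis genes as a list were 8 higher and 9 lower. Complement genes were close, with C1qb at 0.19 (-0.02 to 0.41) and C1qc at -0.08 (-0.28 to 0.12). TGF-beta signalling genes were lower for 9 of 13 (median -0.15).

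**Figure D5:**
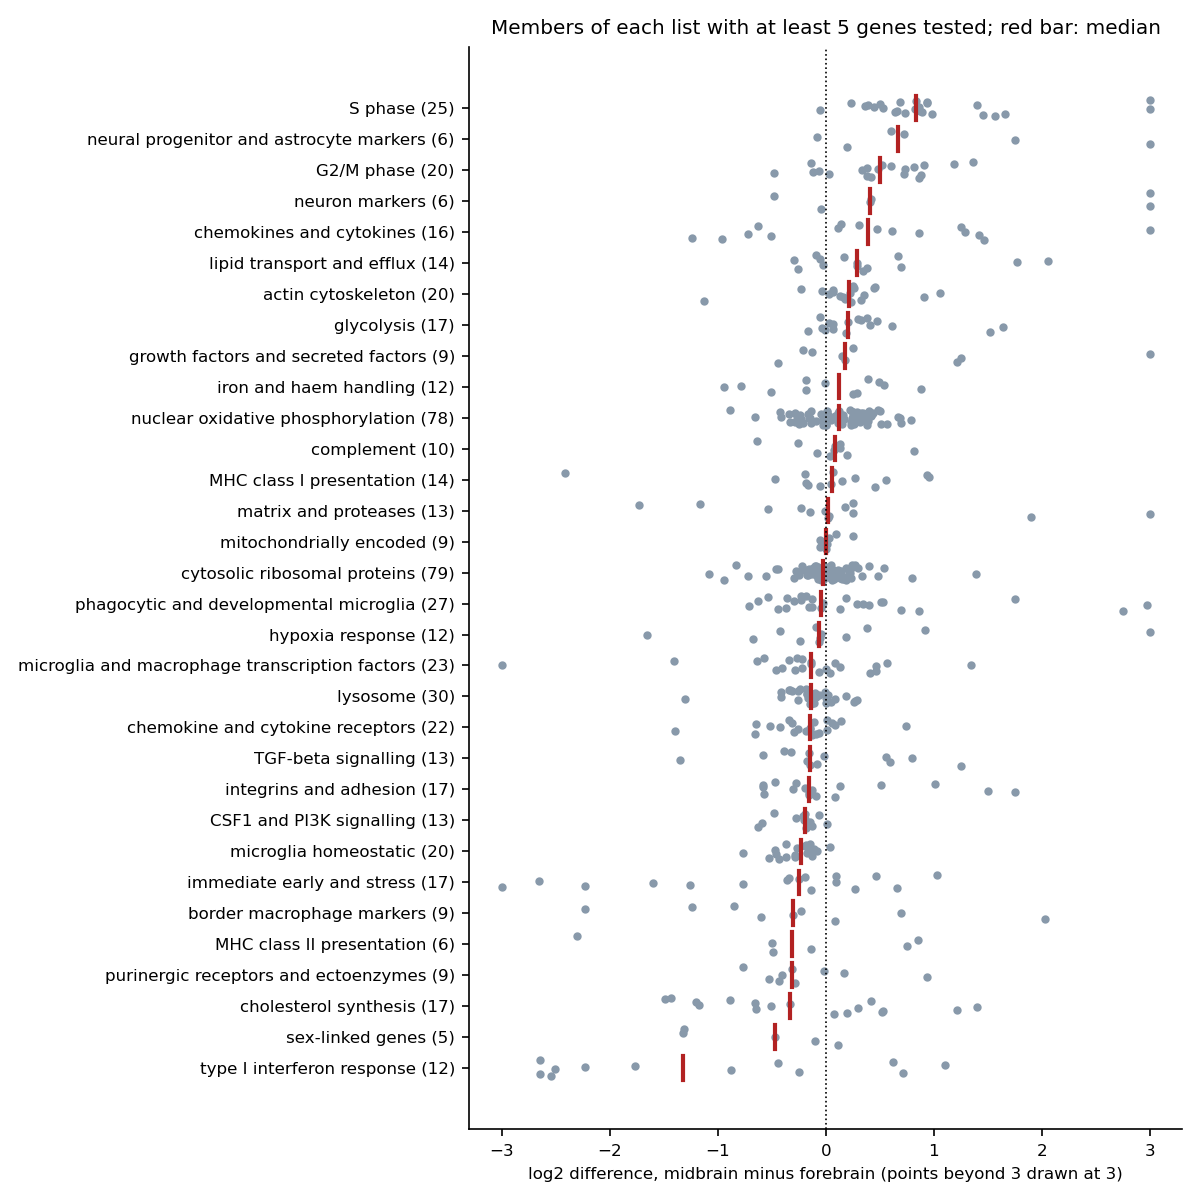
Fitted log2 difference (x axis, midbrain minus forebrain) of the tested members of each list with at least 5 of them (y axis, number tested in brackets); red bars are medians and values beyond 3 or -3 are drawn there. The S phase list has its median at 0.84, homeostatic genes at -0.23 and cytosolic ribosomal proteins at -0.02.

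Levels per length were compared for abundant transcripts. Apoe had 5266 CPM per kilobase of exon in forebrain and 6700 in midbrain, and Actb 5304 and 6251. Larger differences were those of Gm10800, at 1692 and 4934 (log2 difference 1.54, 95% interval 0.91 to 2.18), Rn18s-rs5, at 4574 and 7039, and Ctsl, the protease cathepsin L, at 1813 and 1111 (-0.71, -1.13 to -0.28), none of which passed the test. The levels of Ctsd, Cst3 and Lgmn differed by less, with log2 differences of -0.16, -0.10 and 0.02 and intervals of -0.38 to 0.07, -0.28 to 0.07 and -0.15 to 0.18. Correlations of log2 CPM between samples across genes were 0.766 to 0.793 within forebrain, 0.79 to 0.813 within midbrain and 0.759 to 0.805 between regions, ranges that overlap.

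Amounts of RNA and its quality were compared over the 8 samples. The median log2 ratio of gene reads to spike-in reads was 9.76, 10.1, 10.1 and 9.90 in forebrain and 10.2, 9.55, 9.56 and 9.60 in midbrain, with midbrain replicate 1 highest (exact two-sided permutation p = 0.229). At 27381 reads the median number of detected genes was 2668, 2953, 2926 and 2896 in forebrain and 2891.5, 2748, 2802 and 3055 in midbrain (exact permutation p = 0.943); not thinned the means were 3547 and 4055 (exact permutation p = 0.0286). The median mitochondrial share was 2.76%, 2.25%, 2.40% and 2.15% in forebrain and 3.26%, 3.44%, 3.59% and 2.65% in midbrain, where replicate 4 lay below forebrain replicate 1 (exact permutation p = 0.0571). In the forebrain samples this share was 3.84% to 4.47% in rows B to P and 1.37% to 1.73% in rows A to O, and in the midbrain samples 3.00% to 4.89% and 2.00% to 3.82%. In rows B to P the regional means were 4.20% and 3.97% (exact permutation p = 0.686). Over the 5 cell measures the Benjamini-Hochberg adjusted values of these exact permutation tests were 0.285 for the mitochondrial share, 0.357 for cycling cells, 0.382 for the spike-in ratio, 0.75 for Spp1 and Gpnmb cells and 0.943 for detected genes. Leaving out midbrain replicate 4, the midbrain sample below forebrain replicate 1, left mitochondrial shares without overlap. The difference was then 1.04 points, with exact permutation p = 0.0286, the lowest value possible with 35 splits. Leaving out any other sample gave exact permutation p-values of 0.0571 to 0.0857 for this share.

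The embryonic cerebellum and spinal cord samples of the series give a scale for these levels, although they were on another plate, so that plate and region cannot be told apart for them. Over forebrain, midbrain, cerebellum and spinal cord in that order, P2ry13 had means of 2086 ± 212.4, 1474 ± 219.9, 1450.1 ± 104, 1372 ± 122 CPM (SD, n = 4 in each). P2ry12 had 6016 ± 522, 4542 ± 698, 4675 ± 349, 4408 ± 559.7 CPM, Gpr34 2293 ± 347, 1374 ± 183, 1651 ± 200.4, 1345 ± 203 CPM and Rsrp1 1863 ± 210.3, 1169 ± 65.7, 902 ± 226, 983 ± 155 CPM. Mcm4 had 66.4 ± 34.96, 213.8 ± 68.6, 151 ± 36.9, 149 ± 63.9 CPM. For P2ry13, P2ry12, Gpr34 and Rsrp1 every forebrain sample was above every sample of the other 3 regions, as for Malat1 and Slc17a5. These genes were already known to lie apart between forebrain and midbrain. Tspan32os and Gm11251 showed this too, but near 0, with 0.706 and 0.677 CPM in their lowest forebrain samples. For Gm11251 the highest spinal cord sample had 0.655 CPM. Some other genes lower in midbrain did not show this. The lowest forebrain sample of Sirt7 had 180 CPM and the highest spinal cord sample 203 CPM. For Cd86 it had 515 CPM, and the highest cerebellum sample 611 CPM. Zfp868, Zfp397 and 4932438A13Rik also overlapped with another region. For Mcm4 the forebrain range overlapped those of cerebellum and spinal cord. No test was made of these levels.

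Positions of the genes named with full statistics are those of the deposited table on GRCm38: Cdc6 on chromosome 11 from 98907801 to 98923940, Mcm4 on chromosome 16 from 15623897 to 15637400, Dnmt1 on chromosome 9 from 20907206 to 20959888, Gpr34 on chromosome X from 13632089 to 13640858, P2ry13 on chromosome 3 from 59207892 to 59210882, P2ry12 on chromosome 3 from 59216272 to 59262871, Sirt7 on chromosome 11 from 120618372 to 120625240 and Cd86 on chromosome 16 from 36603869 to 36666081. The values are counts over all exons of each gene.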

How the data were processed

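Single-cell SmartSeq2 libraries of 380 sorted wells, 190 of each region, were analysed. The authors deposited raw read counts per gene and well, whose processing notes name STAR 2.5.2b, featureCounts 1.6.2 and GRCm38. Of its 48587 gene rows 716 share a symbol and were kept apart; 92 rows hold spike-ins. In columns 1 and 2 of the plate the deposited values also hold the counts of other same-row wells with names that start the same way. Those counts were subtracted, which left 0 of 362076 gene rows below 0 (46.639% with the next row's wells) and touched forebrain replicate 1. Wells with under 500 genes (31) or over 20% mitochondrial counts (0) were left out; no doublet caller was run. The 4 blank wells had 271 to 6163 gene counts and at most 316 genes.

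Counts were summed per replicate label and tested with edgeR 4.0.16 (R 4.3.3). The settings were TMM, filterByExpr by region, robust quasi-likelihood F test, two-sided, Benjamini-Hochberg over all 12384 genes tested, and a threshold of 0.05. DESeq2 1.42.0 was used as an alternative. The edgeR test was also run on simulated counts, and DESeq2 was not. CPM are scaled by TMM library size; sums over a list use total counts, with SD over 4 samples. Cell measures used exact two-sided permutation tests over 70 splits, after thinning each cell to 27381 reads, the 10th percentile (seed 7). How embryos were pooled into the samples, and whether the pools came from separate litters, is not given in the sources used here. The p-values therefore measure the spread between these samples. The members and lists were chosen with earlier results of these data known. Named genes were to be the 15 largest changes in each direction among genes that passed with at least 10 CPM; as none passed, the 12 with the smallest p in each direction are named, with a fixed set of marker genes and, of each list, up to 3 members with the highest CPM. Members named because they lay apart from the other region, or at an unadjusted p under 0.05, were chosen after their values were seen. Results of some genes are not reported here. Motif matches used plain text search in RefSeq windows. Intervals of log2 differences come from the edgeR fit and include the spread between samples. Intervals of shares of cells and limits for a count of 0 cover counting error only, with 95% confidence and 3 counts.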

Additional observations from a re-analysis of the deposited data

Results flagged for a closer look

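In 11 of 92 groups of 4 samples, for the named genes and cell measures, 1 sample stood apart from the other 3 by Dixon's criterion; chance alone gives about 1 in 20. Among the genes with the smallest p these were Rn18s-rs5 in forebrain replicate 1, high at 12102 CPM, Palm in midbrain replicate 3, high at 46.2 CPM, Gm21738 in forebrain replicate 3, high at 81.7 CPM, and Slc17a5 in midbrain replicate 4, high at 58.8 CPM.

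Spp1 was high in forebrain replicate 3, at 5601 CPM, and in midbrain replicate 4, at 10647 CPM, where Gpnmb was high as well, at 505 CPM. Ccr2, a chemokine receptor of monocytes, was high in forebrain replicate 2, at 12.7 CPM, and the Y-linked gene Ddx3y was high in the same sample, at 83.2 CPM. Of the 44 cells of that sample, 23 had at least 5 Y-linked reads and fewer than 5 of Xist. The share of Spp1 and Gpnmb cells was lowest in forebrain replicate 4, at 0.0%, and the log2 ratio of gene to spike-in reads was highest in midbrain replicate 1, at 10.2.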

How the results depend on the processing

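The count of 0 genes by edgeR's quasi-likelihood test held in 18 of 21 alternatives; DESeq2 gave 154, no filter on low counts 24 and thinned cells 2. With replicate number as a block edgeR called 0 genes (smallest adjusted p = 0.943). Across the genes tested, samples with the same number did not deviate together (correlations -0.0114 to 0.026), and 3 of 8 correlated best with their own number. Whether samples with the same number share embryos was not tested. For cycling cells the block left the difference at 7.02 points with exact permutation p = 0.25 (smallest possible 0.125). Rows B to P alone, an alternative chosen after seeing the data, gave 0 genes (smallest adjusted p = 0.992). Leaving out 1 sample at a time gave 0 genes each time.

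For cycling cells the difference was 10.0 points not thinned and -3.88 with counts as deposited, and 4.54 to 10.0 with 1 sample left out. For Spp1 and Gpnmb cells it was -0.0491 points not thinned. For detected genes it was 507.6 not thinned, -520 as deposited and -130 in rows B to P, and -50.9 to 55.4 with 1 sample left out. For the mitochondrial share it was -0.23 points in rows B to P, and 0.73 to 1.04 with 1 sample left out. Of 41 followed genes, 7 took the other sign in some alternative, with none of their values called. Apoe had a log2 difference of -0.073, Mrc1 -0.064 and Srgn 0.28 in thinned cells; Mrc1 had -0.17 and Xist -0.013 as deposited; Mrc1 had -0.21 and Ddx3y 0.14 in cells not cycling; Ccr2 had 0.045 with no filter. With 1 sample left out the ranges were Ccr2 -1.37 to 2.52, Ddx3y -1.10 to 0.64, Mrc1 -0.22 to 0.50, Spp1 -1.14 to 2.60, Srgn -0.70 to 0.17 and Xist -0.37 to 0.55. The cause was not tested. Depth limits what can be seen: no gene under 10 CPM had an interval within 2-fold.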
